A study of Mus musculus with 4 samples.

Results

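Neutrophils carry their weapons in granules that are filled while the cells mature in the bone marrow. The neutrophil granule protein genes described here are 9 of the 32285 gene rows of the study's count tables. They were chosen by symbol, with earlier results of these data known, and all 9 rows are present in both tables. Ngp, Camp, Ltf, Lcn2 and Chil1 belong to the secondary (specific) granules, and Mpo, Elane, Prtn3 and Ctsg to the primary (azurophil) granules. In the files these rows carry the Ensembl IDs ENSMUSG00000032484 (Ngp), ENSMUSG00000038357 (Camp), ENSMUSG00000032496 (Ltf), ENSMUSG00000026822 (Lcn2), ENSMUSG00000064246 (Chil1), ENSMUSG00000009350 (Mpo), ENSMUSG00000020125 (Elane), ENSMUSG00000057729 (Prtn3) and ENSMUSG00000040314 (Ctsg). Primary granule genes are transcribed at the promyelocyte stage and secondary granule genes at the myelocyte and metamyelocyte stage, and most of them are shut down before a neutrophil enters the blood, so that a mature cell holds the proteins with little of the RNA. Lcn2 and Chil1 are known exceptions, since inflammatory signals can switch them on again in mature neutrophils and in lung epithelium.

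The groups were Plaur-/- mice (labelled Plaur KO), whose urokinase receptor gene Plaur is labelled as knocked out, and WT C57B6/J mice. Both genotypes were sensitized with LPS/OVA (lipopolysaccharide and ovalbumin) on days 0 and 7 and challenged with aerosolized ovalbumin on day 14. Lungs were digested and sorted for CD45.2, a pan-leukocyte surface protein, although the labels also write of circulating leukocytes and of total lung cell lysate. The cells were profiled by droplet single-cell RNA sequencing from the 3′ end with antibody tags for CD11b, CD14, CCR3, Ly-6C and ST2. The labels name 8 mice of each genotype without saying how many entered the library, and each genotype has a single RNA library. Differences between the genotypes thus lack a replicate check and could not be tested, and every interval is a 95% interval for counting error only.

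Gene UMIs (unique molecular identifiers, each counting 1 captured RNA molecule) numbered 47442215 over 10102 Plaur KO barcodes and 42913843 over 9024 WT barcodes. After filtering, 9584 Plaur KO cells (median depth 2777.5 UMIs) and 8684 WT cells (3209 UMIs) remained. The libraries shared 16 barcodes, 15 of them among kept cells. Plaur itself was present in both, at 455 CPM (the UMIs of a gene summed over cells and scaled to equal total UMIs) in the Plaur KO library and 527 CPM in the WT library. Its level differed by class: 1256 CPM in Plaur KO and 2069 CPM in WT in neutrophil-like cells, 308 and 203 CPM in B cell-like cells, and 293 and 25.9 CPM in T cell-like cells. No source used here says which part of the gene the allele removes, and a 3′ tag outside that part checks nothing about the labels.

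The cells fell into 30 clusters, named from marker genes that did not include the 9 granule genes, which were also kept out of the clustering. Neutrophil-like cells were 3313 of the kept cells in the Plaur KO library (34.6%) and 2275 in the WT library (26.2%), in clusters 0, 1, 4, 14, 15 and 16, and all 12 neutrophil markers were found in at least 20% of them in both libraries. No cluster earned the name of neutrophil precursors. Cluster 18, with 684 Plaur KO and 192 WT cells, had all 12 neutrophil markers and all 10 classical monocyte markers in at least 20% of its cells in both libraries. In 89.5% of its Plaur KO barcodes and 82.3% of its WT barcodes, Retnlg or Cxcr2 of neutrophils stood beside F13a1 or Ccr2 of monocytes, and its median depth was 10528.5 UMIs in the Plaur KO library and 9195 in the WT library, against 1729 and 1746 in neutrophil-like cells. Cluster 18 is therefore called by its number and kept apart from cluster 12 (177 Plaur KO and 60 WT cells), which had all 10 monocyte markers in both libraries, at 13183 CPM summed in Plaur KO and 11275 CPM in WT, beside 823 and 389 CPM of the neutrophil markers. Cluster 29 (36 Plaur KO and 22 WT cells) mixes markers of lung epithelium and fibroblasts and is also called by its number.

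The regulatory DNA just before 6 of the genes is shown first, those whose UMIs the results turn on (Ngp, Camp, Ltf, Lcn2 and Prtn3) and Elane, the neighbour of Prtn3. Sequences are the 250 bases before the annotated start, from RefSeq on GRCm38.p6 (mm10), each written 5′ to 3′ on the strand of its gene. Each of the 9 genes had 1 window. Searched on both strands, the motif TTNCNNAA, a form bound by C/EBP factors, was found in 12104 of 32851 mouse promoter windows of this length (36.8%), and GGAAGT, a form bound by ETS factors such as PU.1, in 6485 (19.7%). Capitals mark these matches, which do not overlap one another in the windows shown. Also searched, and not marked, were TGTGGT, present in 14.0% of windows and before Ctsg, TATAAA, in 12.4% and before Ctsg, and CCAAT, in 33.8% and before Ngp, Ltf, Elane and Chil1; in Ltf a CCAAT match overlaps a TTNCNNAA match.

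The secondary granule genes Ngp (chr9:110419558-110419807, plus strand), Ltf (chr9:111019042-111019291, plus strand) and Lcn2 (chr2:32387740-32387989, minus strand) held 3, 2 and 1 matches to TTNCNNAA. Camp (chr9:109849457-109849706, minus strand), which shared its richest barcodes with Ngp, held none.
Ngp: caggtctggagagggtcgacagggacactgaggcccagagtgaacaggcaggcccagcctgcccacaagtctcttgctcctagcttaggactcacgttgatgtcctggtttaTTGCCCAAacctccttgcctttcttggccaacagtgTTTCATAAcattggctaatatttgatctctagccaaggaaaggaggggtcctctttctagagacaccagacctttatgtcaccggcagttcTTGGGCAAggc
Ltf: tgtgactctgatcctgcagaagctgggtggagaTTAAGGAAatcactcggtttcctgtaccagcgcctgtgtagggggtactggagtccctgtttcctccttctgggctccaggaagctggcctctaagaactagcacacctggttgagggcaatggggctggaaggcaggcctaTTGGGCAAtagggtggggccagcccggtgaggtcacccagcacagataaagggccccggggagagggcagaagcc
Lcn2: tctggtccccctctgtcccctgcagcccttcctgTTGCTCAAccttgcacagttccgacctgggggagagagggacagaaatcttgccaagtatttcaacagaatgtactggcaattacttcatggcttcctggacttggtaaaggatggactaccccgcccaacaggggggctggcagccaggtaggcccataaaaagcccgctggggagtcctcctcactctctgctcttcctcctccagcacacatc
Camp: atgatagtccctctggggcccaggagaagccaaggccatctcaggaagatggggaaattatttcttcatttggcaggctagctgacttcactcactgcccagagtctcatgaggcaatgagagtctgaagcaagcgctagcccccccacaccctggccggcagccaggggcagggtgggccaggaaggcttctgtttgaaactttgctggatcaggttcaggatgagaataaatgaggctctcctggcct
The primary granule genes Prtn3 (chr10:79879417-79879666, plus strand) and Elane (chr10:79886062-79886311, plus strand) are neighbours on chromosome 10, with 3137 bases and no annotated gene between them, and each held 1 match to GGAAGT.
Prtn3: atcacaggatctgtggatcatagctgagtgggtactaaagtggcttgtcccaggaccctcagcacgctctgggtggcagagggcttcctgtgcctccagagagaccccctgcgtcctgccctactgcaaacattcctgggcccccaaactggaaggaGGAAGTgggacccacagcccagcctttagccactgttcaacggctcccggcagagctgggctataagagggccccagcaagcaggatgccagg
Elane: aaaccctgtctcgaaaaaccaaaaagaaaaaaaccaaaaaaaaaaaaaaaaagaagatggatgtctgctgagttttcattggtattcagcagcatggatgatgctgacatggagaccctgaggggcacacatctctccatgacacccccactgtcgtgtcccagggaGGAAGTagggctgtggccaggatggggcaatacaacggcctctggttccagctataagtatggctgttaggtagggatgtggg
TTNCNNAA was thus present before 4 of the 5 secondary granule genes (Ngp, Ltf, Lcn2 and Chil1) and before none of the 4 primary ones, while GGAAGT was present before all 4 primary granule genes and none of the secondary ones. Camp, which shared its richest barcodes with Ngp, had no match. A match is a description of these letters and not a measured binding site, and the search covered this window only. Camp, Ngp and Ltf lie on chromosome 9 with 570351 bases between Camp and Ngp and 596279 bases between Ngp and Ltf, and 18 and 25 other annotated genes lie in those gaps.

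Most granule genes were rare in both libraries. Of the kept cells, 27.5% in the Plaur KO library and 19.2% in the WT library carried a UMI of at least 1 of the 9 genes, and 2567 of these 2631 Plaur KO cells and 1654 of these 1669 WT cells carried a secondary granule gene. Lcn2, which encodes lipocalin 2, a protein that withholds iron from bacteria by binding their siderophores, was found in 2180 Plaur KO cells (22.7%, 21.9 to 23.6%) and in 1436 WT cells (16.5%, 15.8 to 17.3%). Chil1, which encodes a chitinase-like lectin without chitinase activity, was found in 1107 Plaur KO cells (11.6%, 10.9 to 12.2%) and in 555 WT cells (6.39%, 5.89 to 6.93%). The intervals of the libraries did not overlap for either gene. How many other genes have intervals apart was not counted, so the gap cannot be read as particular to Lcn2 and Chil1. Neutrophil-like cells also made up more of the Plaur KO library (34.6%) than of the WT library (26.2%). Within them, as given below, the intervals overlapped for Lcn2 and not for Chil1.

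Ngp, Camp and Ltf, which encode a cathelin-related granule protein, the antimicrobial peptide cathelicidin and the iron-binding protein lactoferrin, were each found in about 1% of cells or fewer. Ngp was found in 113 Plaur KO cells (1.18%, 0.973 to 1.42%) and 42 WT cells (0.484%, 0.349 to 0.653%). Camp was found in 27 Plaur KO cells (0.282%) and 12 WT cells (0.138%), with intervals that overlap. Ltf shares were alike, with 68 Plaur KO cells (0.710%, 0.551 to 0.899%) and 62 WT cells (0.714%, 0.548 to 0.914%).

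The primary granule genes were nearly empty apart from Prtn3. Mpo, the gene of myeloperoxidase, had 3 UMIs in 3 Plaur KO cells and 1 UMI in 1 WT cell. Elane, the gene of neutrophil elastase, had 8 UMIs in 7 Plaur KO cells and none in the WT library, where 0 of 8684 cells allows a share of up to 0.0345%. Ctsg, the gene of cathepsin G, had 6 UMIs in the Plaur KO library and 3 in the WT library, each in a cell of its own. Prtn3, the gene of proteinase 3, stood apart with 217 Plaur KO cells (2.26%, 1.98 to 2.58%) against 28 WT cells (0.322%, 0.214 to 0.466%).

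**Figure D1:**
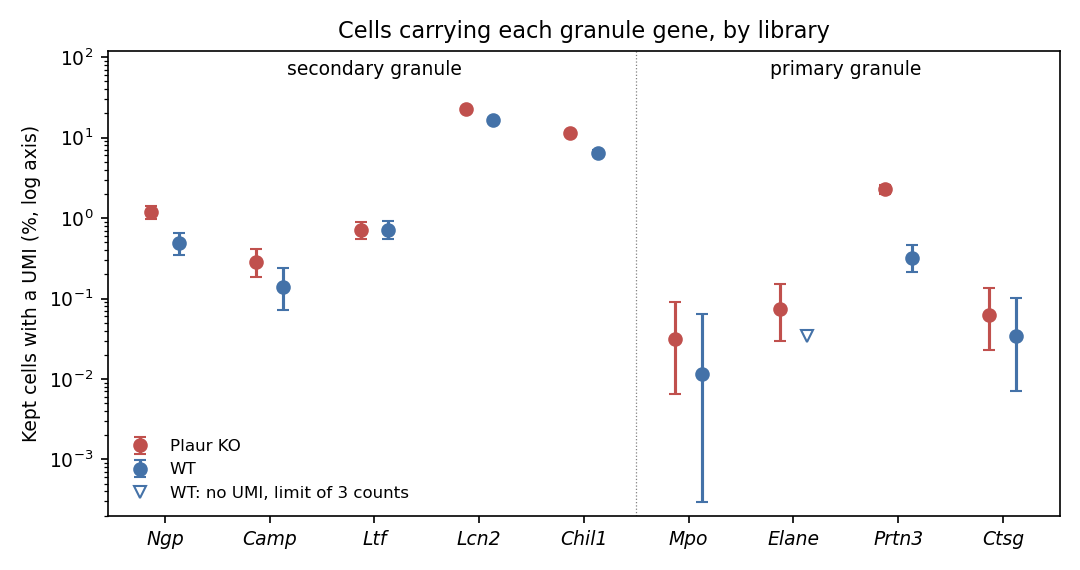
Percent of kept cells with at least 1 UMI of each gene, on a log axis, with 95% Clopper-Pearson intervals, Plaur KO left and WT right of each gene name. Lcn2 and Chil1 stand above all others, and Prtn3 is the gene of the primary group that is carried by 2.26% of Plaur KO cells and 0.322% of WT cells; the open triangle is the limit of 3 counts for Elane in the WT library.

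Summed over all kept cells, Prtn3 had 7.65 CPM in the Plaur KO library and 0.781 CPM in the WT library, a log2 ratio of 3.29 (2.77 to 3.86). Chil1 had 55.0 CPM in the Plaur KO library and 23.3 CPM in the WT library, a log2 ratio of 1.24 (1.13 to 1.35). Lcn2 had 241 CPM in the Plaur KO library and 126 CPM in the WT library, a log2 ratio of 0.93 (0.89 to 0.98). Prtn3, Ngp and Chil1 were higher by at least 2-fold, 3 of the 6 members with at least 20 UMIs over both libraries, while 2.65% of all 15928 genes with as many UMIs were higher by that much in Plaur KO and 3.17% lower. Which members pass turns on the setting: Ngp (0.74 without cluster 18) and Chil1 (0.96 in thinned cells) fall short, and TMM factors bring Lcn2 (1.02) and Camp (1.08) past 2-fold. S100a8 and Retnlg, which mark neutrophils, had log2 ratios of 1.04 and 1.82 over the same cells, and the share of neutrophil-like barcodes was also larger in the Plaur KO library. More cells of a type and more RNA per cell cannot be told apart in such sums, and the values within classes follow.

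Free RNA in the droplets can give a few UMIs to cells that do not express a gene. The B cell-like and T cell-like cells are given as a comparison, and the source of their UMIs was not tested. Lcn2 was found in 4 of 1126 Plaur KO and 4 of 1494 WT B cell-like cells (0.355% and 0.268%, at median depths of 2048.5 and 2335.5 UMIs). In T cell-like cells it was found in 15 of 1290 Plaur KO (1.16%) and 8 of 1513 WT cells (0.529%), at median depths of 2825.5 and 3229 UMIs. The shares in neutrophil-like cells, which were shallower, were many times these, whereas the shares with Prtn3, 0.272% of Plaur KO and 0.132% of WT neutrophil-like cells, had intervals that overlap those of T cell-like cells (0.0775% and 0.0661%). Chil1 was found in 2 Plaur KO and no WT B cell-like cells and in 1 Plaur KO and 6 WT T cell-like cells, and Ngp in no Plaur KO and 2 WT B cell-like cells. Mpo and Elane had no UMI in a neutrophil-like cell of either library, which allows shares of up to 0.0906% in Plaur KO and 0.132% in WT, and Ctsg had 1 UMI in Plaur KO and none in WT.

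**Figure D2:**
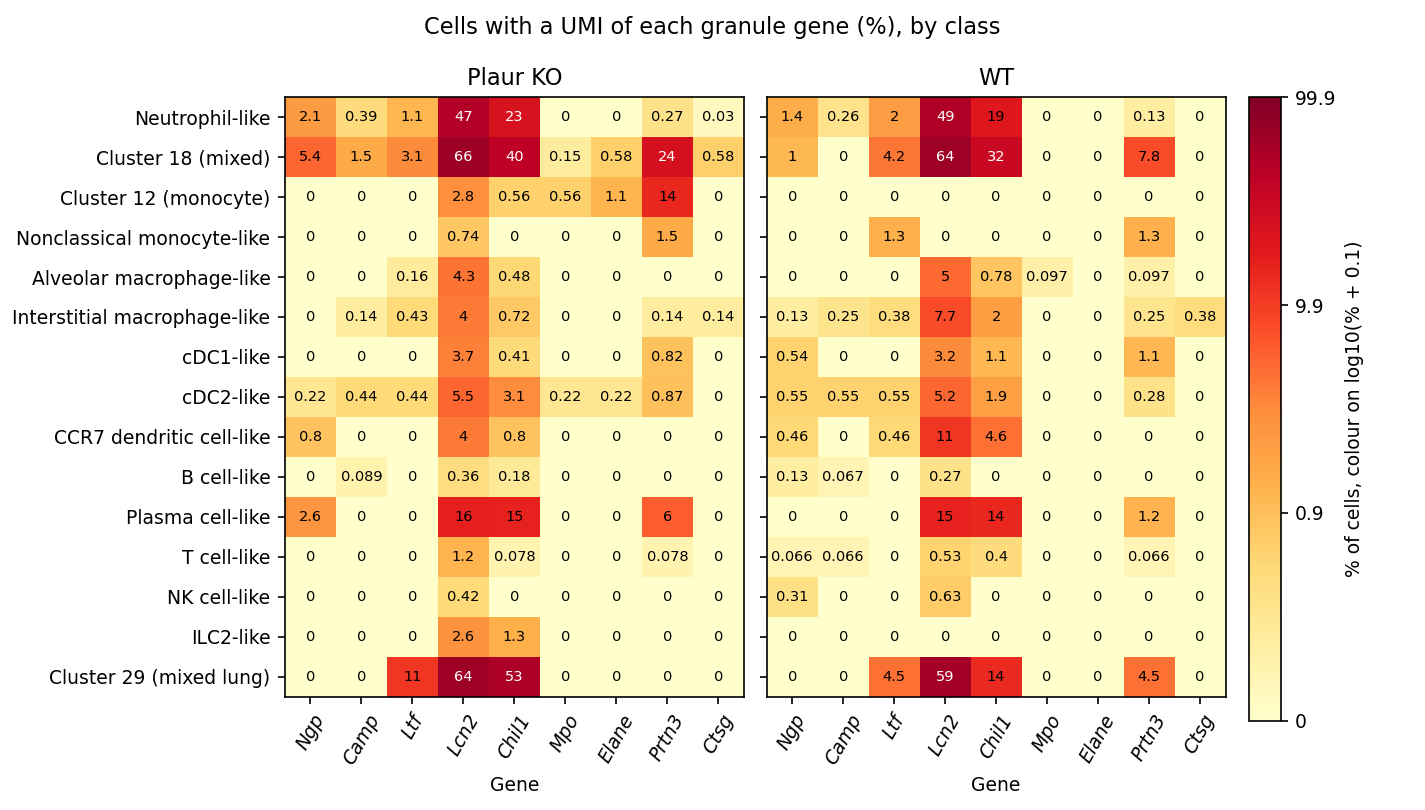
Percent of cells with at least 1 UMI of each gene (columns) in each class or numbered cluster (rows), Plaur KO left and WT right; the colour is on log10 of the percent plus 0.1 and each field gives the percent. Lcn2 is carried by about as many neutrophil-like cells in Plaur KO (47.2%) as in WT (48.9%), and Prtn3 reaches 24.3% of cluster 18 and 14.1% of cluster 12 in Plaur KO, against 7.81% and 0% in WT.

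At least 1 of Ngp, Camp and Ltf was carried by 113 neutrophil-like cells of the Plaur KO library (3.41%) and 78 of the WT library (3.43%). In cluster 18 the carriers were 59 of 684 barcodes in Plaur KO (8.63%, 6.63 to 11.0%) and 10 of 192 in WT (5.21%, 2.53 to 9.37%). Cluster 18 was deeper, with medians of 10528.5 (Plaur KO) and 9195 UMIs (WT) against 1729 and 1746. In cells thinned to equal depth, Ngp, Camp and Ltf were found in 4, 3 and 2 of 668 Plaur KO cells of cluster 18. They were found in none of its 191 WT cells. The thinned neutrophil-like counts were 32, 6 and 22 of 3136 Plaur KO cells, and 17, 4 and 20 of 2168 WT cells. At equal depth only Camp in Plaur KO thus had a larger share in cluster 18, on 3 and 6 cells. Without thinning, Ngp was found in 71 Plaur KO and 31 WT neutrophil-like cells (2.14% and 1.36%), and Ltf in 37 and 46 (1.12% and 2.02%). The 2 genes stood in opposite order, with exact intervals that overlap for each gene. A handful of barcodes held most of the Ngp and Camp RNA, and 258 of the 380 Plaur KO UMIs of Camp were in cluster 18, against none in WT. The richest Plaur KO barcode for Ngp held 137 of 468 UMIs, and the richest WT barcode held 115 of 178 UMIs. Camp was still more uneven: the richest barcode had 159 of 380 UMIs in the Plaur KO library and 141 of 178 in the WT library. The 5 richest barcodes together held 64.7% of the Ngp UMIs and 92.6% of the Camp UMIs in the Plaur KO library, against 79.2% and 96.1% in the WT library. For Lcn2, the 5 richest barcodes held 5.41% in the Plaur KO library and 3.04% in the WT library, so that its UMIs were spread over many cells.

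**Figure D3:**
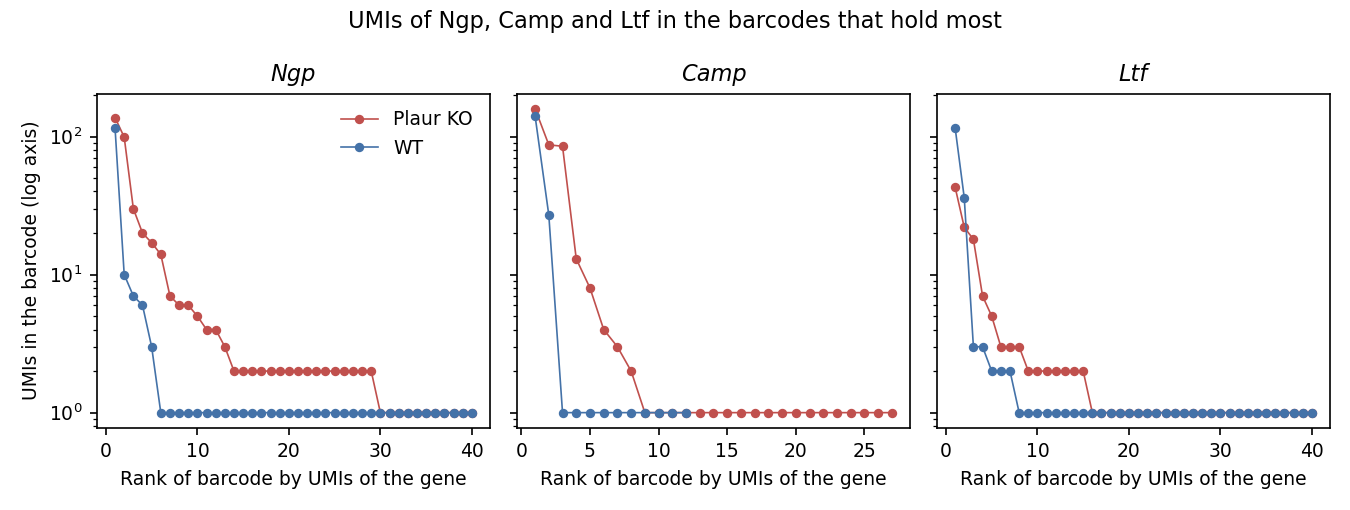
UMIs of Ngp, Camp and Ltf (log axis) in the barcodes that hold most of each gene, ranked within each library, up to 40 barcodes. The first ranks stand at 43 to 159 UMIs and the curves drop to 1 UMI by rank 30 in the Plaur KO library and by rank 8 in the WT library.

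The barcodes rich in Ngp were also those rich in Camp, and some held Ltf. At least 2 of Ngp, Camp and Ltf were found in 13 Plaur KO barcodes and 3 WT barcodes, and all 3 genes in 4 Plaur KO and 2 WT barcodes. These 13 and 3 barcodes held 72.0% of the Ngp UMIs and 95.5% of the Camp UMIs of the Plaur KO library, and 70.8% and 94.4% of those of the WT library. For Ltf they held 51.5% in Plaur KO and 17.4% in WT, where the richest barcode, with 116 of 219 UMIs, lay in cluster 29, which had no UMI of Ngp or Camp. Among the Plaur KO barcodes, 7 lay in cluster 18 and 6 among neutrophil-like cells; the 3 WT barcodes were neutrophil-like. The richest neutrophil-like Plaur KO barcode, in cluster 0, had 137 UMIs of Ngp, 85 of Camp, 43 of Ltf, 50 of Lcn2 and 5 of Cebpe, the gene of the factor that drives the secondary granule programme, among 4464 UMIs. The richest WT barcode, in cluster 14, had 115 UMIs of Ngp, 141 of Camp, 36 of Ltf, 23 of Lcn2 and none of Cebpe among 8219 UMIs. In those 2 barcodes the 3 genes made up 5.94% and 3.55% of all UMIs.

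A few genes of mature neutrophils and of precursors were looked at in the same barcodes. All 16 held Retnlg, a gene of mature neutrophils, with 27 UMIs in the richest neutrophil-like Plaur KO barcode and 58 in the richest WT barcode. That Plaur KO barcode had 1 UMI of Csf3r, the gene of the receptor for granulocyte colony-stimulating factor, and 3 of Cxcr2 among its 4464 UMIs. Mki67, a gene of dividing cells, and Ms4a3, a gene of granulocyte and monocyte progenitors, had no UMI in any of them, and Fcnb, a gene of immature neutrophils, had 1 UMI in 1 Plaur KO barcode of cluster 18. Mpo, Elane and Ctsg had none, while Prtn3 was found in 6 of the 7 in cluster 18. Cebpe was found in 5 of the 13 Plaur KO barcodes and in none of the 3 WT barcodes.

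Because so few barcodes carried the RNA, the ratios between the libraries turned on them. In neutrophil-like cells Ngp had 34.1 CPM in Plaur KO and 30.8 CPM in WT, a log2 ratio of 0.15 (-0.14 to 0.44) that became 1.19 (0.54 to 1.89) without the 5 richest cells of each library. Camp had 15.8 CPM in Plaur KO and 31.8 CPM in WT, a log2 ratio of -1.01 (-1.36 to -0.66) that turned to 2.52 (-0.38 to 8.00) without them, on 8 and 1 remaining UMIs. Ltf had 12.3 CPM in Plaur KO and 16.1 CPM in WT, a log2 ratio of -0.38 (-0.82 to 0.06). In all kept cells Ngp had a log2 ratio of 1.29 (1.04 to 1.55), which was 2.05 without the 5 richest cells, and Camp 0.99 (0.73 to 1.25), which was 1.89 without them and -0.37 without cluster 18. Ltf had -0.46 (-0.76 to -0.17) in all kept cells, which turned to 0.26 without the 5 richest cells and to 0.52 without cluster 29, where a single WT barcode held 116 of the 219 Ltf UMIs of its library. For Camp and Ltf no direction between the genotypes can be read from the sums. Ngp was higher in Plaur KO under each setting tried, by 0.74 to 2.05 in all kept cells and 0.12 to 1.19 in neutrophil-like cells, where its interval of -0.14 to 0.44 includes 0 and cluster 14 had -2.50.

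The neutrophil-like cells that carried any of the 3 genes differed from the other neutrophil-like cells in genes that had not been used to pick them. They were deeper, with a median of 2458 UMIs against 1717.5 in Plaur KO and 3130 against 1728 in WT, so the comparison was repeated after thinning each cell to 1000 UMIs. Ly6g, the gene of the surface protein used to stain mouse neutrophils, had 141 CPM in carriers and 52.4 CPM in other cells of Plaur KO, and 74.0 CPM and 25.4 CPM in WT. The log2 ratios of carriers over others were 1.43 in Plaur KO and 1.54 in WT, and 1.16 and 1.63 in thinned cells. Retnlg was higher in carriers by 0.83 in Plaur KO and 0.42 in WT on the log2 scale (1.00 and 0.60 thinned), Mmp8, the gene of neutrophil collagenase, by 0.87 and 0.48 (0.99 and 1.08 thinned), and Lcn2 by 0.78 and 0.40 (1.00 and 0.62 thinned). Mature neutrophil genes went both ways: the lowest ratios were -0.27 for Il1r2 and -0.25 for Il1b in Plaur KO, and -0.25 for Trem1 and -0.18 for Il1b in WT, all with intervals below 0. Chil1 had 1.09 (0.81 to 1.35) in Plaur KO and -0.35 (-0.89 to 0.14) in WT.

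Of the genes of precursor cells with enough UMIs, Cebpe had the highest ratio in Plaur KO carriers, at 1.75 (0.61 to 2.74) on 10 carrier UMIs, and 0.39 (-1.11 to 1.59) in WT on 6. Tuba1b, a tubulin gene of the same list, had 1 UMI in the carriers of each library and a log2 ratio of -2.26 (-7.58 to 0.26) in Plaur KO and -2.57 (-7.89 to -0.05) in WT. Of the carriers, 53 of 113 lay in cluster 0 in Plaur KO (46.9%, against 27.9% of the other neutrophil-like cells) and 14 of 78 in WT (17.9%, against 13.2%). Surface CD11b, the integrin chain that neutrophils also store in granules, averaged 165 antibody UMIs on carriers and 126 on other cells in Plaur KO, and 320 and 166 in WT. The medians on carriers and other cells were 102 and 98 in Plaur KO and 201 and 127 in WT, against means of 5.60 and 4.91 on B cell-like cells; the part of the carriers' greater depth in these values was not tested.

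Across the 50 pairs of a library and a cluster with at least 50 cells, the genes whose level followed Ngp most closely were Camp (Pearson r = 0.954 on log2 of CPM plus 10), Ly6g (0.872), Stfa2 (0.841), Lhx1 (0.838) and 9830107B12Rik (0.829), among 13963 genes. The pairs share 2 libraries and their depth, and the correlation is given as a description.

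Lcn2 was carried by 1565 Plaur KO neutrophil-like cells (47.2%, 45.5 to 49.0%) and 1112 WT cells (48.9%, 46.8 to 51.0%), and by 35.2% and 36.4% of them after thinning to 1000 UMIs. The share of carrying cells was thus alike in both libraries, and the level was close: 780 CPM (760 to 800) in Plaur KO and 683 CPM (661 to 705) in WT, a log2 ratio of 0.19 (0.13 to 0.25). Cluster 0 had the most, with 1270 CPM in Plaur KO and 1215 CPM in WT, and 66.2% and 66.7% of its cells carrying the gene. Cluster 1 had 413 CPM in Plaur KO and 562 CPM in WT, and cluster 4 had 551 CPM in Plaur KO and 694 CPM in WT; both were lower in Plaur KO, with log2 ratios of -0.44 (-0.63 to -0.26) and -0.33 (-0.51 to -0.16). Cluster 14 had 731 CPM in Plaur KO and 668 CPM in WT, a log2 ratio of 0.13 (0.03 to 0.23), and clusters 15 and 16 had -0.18 each, with intervals that include 0. Cluster 0 made up 946 of the 3313 Plaur KO neutrophil-like cells and 303 of the 2275 WT ones. With each of the 6 clusters weighted alike the log2 ratio was -0.11, the opposite direction, and 2 of the 6 clusters were higher in Plaur KO; scaling by TMM or DESeq2 factors would bring it to about 0.

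Chil1 was carried by 768 Plaur KO neutrophil-like cells (23.2%, 21.8 to 24.7%) and 430 WT cells (18.9%, 17.3 to 20.6%). Its level was 163 CPM (154 to 172) in Plaur KO and 116 CPM (107 to 126) in WT, a log2 ratio of 0.48 (0.34 to 0.63), which was 0.71 with the 6 clusters weighted alike and 0.40 without cluster 15, whose 6 WT cells held no Chil1. Cluster 16 had 265 CPM in Plaur KO and 145 CPM in WT, a log2 ratio of 0.87 (0.54 to 1.21), and cluster 14 had 152 CPM and 111 CPM, a log2 ratio of 0.46 (0.22 to 0.70). Clusters 0, 1 and 4 had ratios of 0.29, 0.16 and -0.17 with intervals that include 0, and in cluster 15 only 6 WT cells were found, none with Chil1. Neither gene reached a 2-fold difference in neutrophil-like cells, where 1.55% of 9182 genes were higher by that much in Plaur KO and 4.11% lower. Of the 5 members measured there, none was higher by 2-fold and Camp was lower, at -0.90 and thus short of 2-fold with TMM factors.

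**Figure D4:**
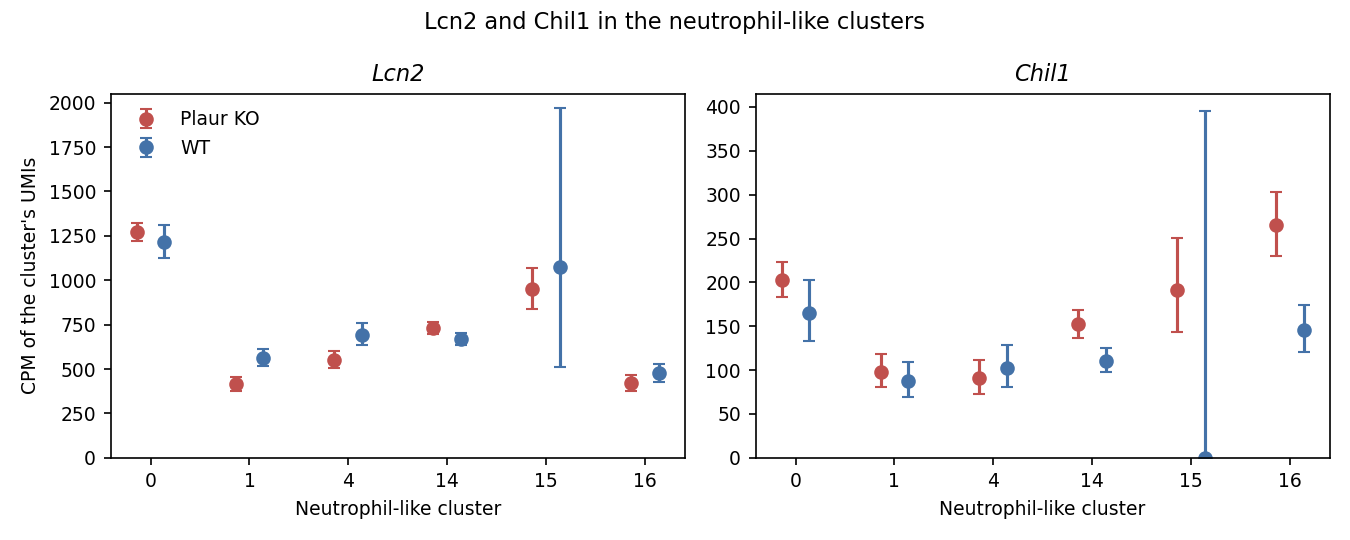
Lcn2 (left) and Chil1 (right) in CPM of the summed UMIs of each neutrophil-like cluster, with exact Poisson 95% intervals, Plaur KO left and WT right of each cluster number. Lcn2 is highest in cluster 0 in both libraries (1270 CPM in Plaur KO and 1215 CPM in WT), and Chil1 differs most in cluster 16 among clusters with more than 6 cells in each library.

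Chil1 was found more often in neutrophil-like cells with Lcn2 than in those without. Of the cells with Lcn2, 31.1% also had Chil1 in Plaur KO against 16.1% of those without, and 25.7% against 12.4% in WT. After thinning to 1000 UMIs the shares were 15.5% against 10.5% in Plaur KO, and 10.0% against 9.06% in WT. Deeper cells give both genes more chances to be seen, so the thinned shares are the ones to read, and in WT they were nearly equal. The genes nearest to Lcn2 over the 50 pairs were Stfa2l1 (r = 0.979), Mmp9 (0.978), which encodes the gelatinase of tertiary granules, Cstdc4 (0.976), Cxcr2 (0.975), the neutrophil chemokine receptor, and Mirt2 (0.975). Those nearest to Chil1 were Il1f9 (0.987), Mgam (0.986), 4933432I03Rik (0.984), Cstdc4 (0.982) and Asprv1 (0.981).

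Where neutrophil RNA lay in barcodes of other classes, Lcn2 could be read against S100a8, an abundant neutrophil gene. Neutrophil-like cells had 18.1 Lcn2 UMIs per 1000 S100a8 UMIs in Plaur KO (17.6 to 18.6) and 19.8 in WT (19.2 to 20.5). Cluster 18 was near these ratios, with 20.2 (19.5 to 20.8) in Plaur KO and 22.9 (21.3 to 24.6) in WT, and 65.8% and 64.1% of its barcodes carried Lcn2, whereas cluster 12 had 5 Lcn2 UMIs in Plaur KO and none in WT. In plasma cell-like cells Lcn2 was found in 16.2% of Plaur KO and 15.3% of WT barcodes, at median depths of 12180 and 14186 UMIs, and the ratio to S100a8 was 18.1 (15.2 to 21.4) and 19.2 (14.8 to 24.6). These barcodes held 7664 and 3278 UMIs of S100a8, and the part of neutrophil RNA in their Lcn2 was not tested. Interstitial macrophage-like cells had 23.7 (18.1 to 30.6) in Plaur KO and 35.7 (30.8 to 41.3) in WT. Alveolar macrophage-like cells had 33.2 (25.1 to 43.0) and 97.7 (81.7 to 116), above the neutrophil ratio in both libraries. Ratios above the neutrophil value were also found in T cell-like, cDC1-like and cDC2-like cells. None of these classes reached the 97.7 of WT alveolar macrophage-like cells, and only the WT cDC1-like interval overlapped its interval. T cell-like cells had 38.9 (24.7 to 58.4) in Plaur KO and 23.3 (14.2 to 36.0) in WT. In cDC1-like cells the ratios were 35.2 (20.9 to 55.7) and 53.3 (24.4 to 101), on 18 and 9 Lcn2 UMIs. In cDC2-like cells they were 22.4 (18.2 to 27.4) and 30.4 (24.5 to 37.3).

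Cluster 29 stood far above these ratios. It held 763 Lcn2 UMIs in 23 of 36 Plaur KO cells and 162 in 13 of 22 WT cells, 1749 CPM and 810 CPM, with 1932 Lcn2 UMIs per 1000 of S100a8 in Plaur KO and 23143 in WT, on 395 and 7 UMIs of S100a8. Chil1 was found in 19 of its Plaur KO cells with 613 UMIs and in 3 of its WT cells with 140 UMIs, of which 107 were in 1 barcode. The log2 ratios were 1.11 (0.86 to 1.36) for Lcn2 and 1.01 (0.74 to 1.28) for Chil1, beside 9.67% of 4147 genes higher by 2-fold and 17.7% lower there. All 8 epithelial markers were found in at least 20% of the Plaur KO cells of the cluster but 1 of 8 in the WT cells, and 6 of 7 fibroblast markers in both, so the marker make-up of the cluster differed between the libraries. These 58 cells gave 7.19% of the Lcn2 UMIs and 25.3% of the Chil1 UMIs of the Plaur KO library, and 3.14% and 14.7% of those of the WT library.

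Prtn3 lay mostly outside the neutrophil-like cells. Of its UMIs, 2.67% in the Plaur KO library and 9.38% in the WT library were in neutrophil-like cells, while cluster 18 held 261 of 337 Plaur KO UMIs and 16 of 32 WT UMIs. In cluster 18 it was carried by 166 of 684 Plaur KO cells (24.3%, 21.1 to 27.7%) and 15 of 192 WT cells (7.81%, 4.44 to 12.6%), at 27.1 CPM (23.9 to 30.6) and 7.31 CPM (4.18 to 11.9), a log2 ratio of 1.89 (1.16 to 2.72). In cluster 18, 3.11% of 10640 genes were higher by at least 2-fold in Plaur KO and 3.81% lower. No barcode had more than 6 UMIs of Prtn3, and the ratio in cluster 18 was 2.38 (1.48 to 3.46) without the 5 richest cells of each library, so the difference did not rest on a few barcodes. The summed neutrophil markers had 54728 CPM in Plaur KO and 44433 CPM in WT in cluster 18, the monocyte markers 7959 and 5336 CPM, and their part in the Prtn3 ratio was not tested. Outside clusters 12 and 18, cDC2-like cells had 15 Prtn3 UMIs in Plaur KO and 1 in WT, and plasma cell-like cells 13 and 1.

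The same order was seen in cluster 12, where 9.60% of Plaur KO and 3.33% of WT barcodes paired a neutrophil with a monocyte gene. There Prtn3 was carried by 25 of 177 Plaur KO cells (14.1%, 9.35 to 20.1%), at 30.6 CPM, and by 0 of 60 WT cells, where a count of 0 allows up to 5.00% of cells. Against the limit of 3 counts over the 60 cells the Plaur KO level was at least 3.07-fold higher, taking the Plaur KO count as exact, and the lower end of the exact interval was a log2 ratio of 1.24, beside 6.77% of 6458 genes higher by 2-fold in this cluster and 2.85% lower. Per 1000 UMIs of F13a1, the monocyte gene of coagulation factor XIII, Prtn3 had 18.6 (12.7 to 26.3) in Plaur KO and 0 (up to 7.87) in WT in cluster 12, and 27.9 (24.6 to 31.5) and 9.86, on 16 Prtn3 UMIs, in cluster 18. Elane followed the same clusters, with 3 UMIs in cluster 12 and 4 in cluster 18 of its 8 UMIs in Plaur KO and none in WT.

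**Figure D5:**
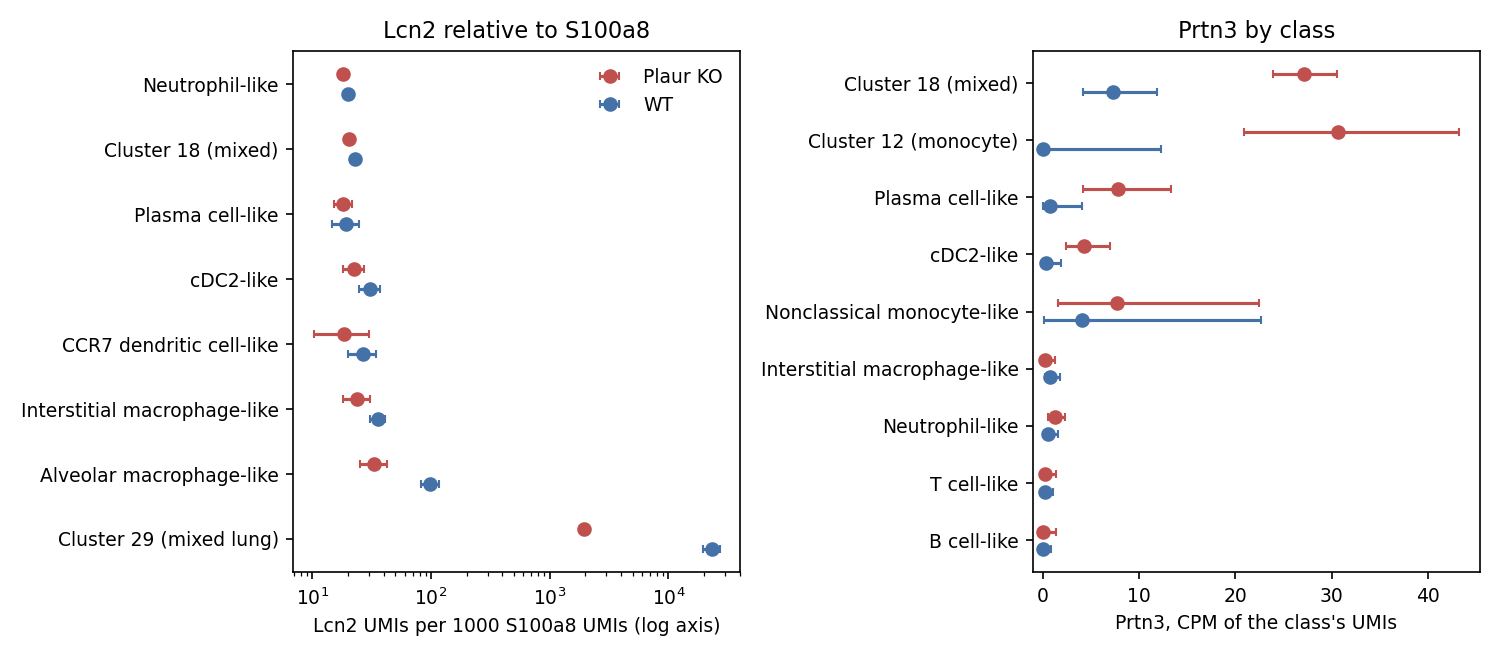
Left, Lcn2 UMIs per 1000 S100a8 UMIs by class on a log axis; right, Prtn3 in CPM by class; points with exact 95% intervals, Plaur KO above WT in each pair. Lcn2 stays near 20 per 1000 in cluster 18 and plasma cell-like cells and stands far higher in cluster 29, and Prtn3 is highest in clusters 18 and 12 of the Plaur KO library.

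Primary granule genes were rarely seen together in 1 cell. Cells with at least 2 of them numbered 7 in the Plaur KO library and 1 in the WT library, and none of them was neutrophil-like. Of the secondary set, at least 2 genes were found in 541 of the 3313 Plaur KO neutrophil-like cells (16.3%) and 323 of the 2275 WT ones (14.2%), and at least 3 in 38 (1.15%) and 22 (0.967%).

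The lists of wider granule genes were chosen with earlier results of these data known. In the neutrophil-like cells the medians of these lists differed little between the libraries, while single genes differed more. All list values are sums over the neutrophil-like clusters, whose shares differed between the libraries. Cluster 0, whose leading genes include Retnlg and Mmp8, held 946 of 3313 Plaur KO and 303 of 2275 WT cells. The part of this mix in the list ratios was not tested. Of 16 secondary granule genes, the 5 members among them, 12 had at least 20 UMIs, 8 of them higher in Plaur KO and 4 lower, with a median log2 ratio of 0.17 beside -0.07 over all 9182 genes. Pglyrp1, which encodes a peptidoglycan-binding antibacterial protein, had 1313 CPM in Plaur KO and 731 CPM in WT, a log2 ratio of 0.85 (0.79 to 0.90), and Mmp8 had 481 CPM and 309 CPM, 0.64 (0.55 to 0.72). The lowest outside the members were Olfm4, a marker of a neutrophil subset, at -0.39 (-0.81 to 0.02), and Cybb, a subunit of the NADPH oxidase, at -0.02 (-0.22 to 0.17). Of 16 primary granule genes 10 were measured, 4 higher and 6 lower, with a median of -0.05 and none past 2-fold; Ctsc, which activates the granule serine proteases, had 0.32 (-0.14 to 0.80), Rab27a 0.31 (0.20 to 0.43), Serpinb1a, which inhibits them, -0.26 (-0.82 to 0.30), and Cd63, a granule membrane protein, -0.54 (-0.69 to -0.39).

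Of 10 tertiary granule genes 9 were measured, 7 higher and 2 lower, with a median of 0.09 and none past 2-fold. Anxa1 had the highest ratio, 0.58 (0.50 to 0.65), and Slc11a1, a metal ion transporter, the lowest, -0.45 (-0.57 to -0.33). Of 11 genes linked to NF-kB signalling, as targets or as parts of its pathways, 9 were measured, 2 higher and 7 lower, with a median of -0.48. Tnf and Saa3 were lower by more than 2-fold. Tnf, which encodes an inflammatory cytokine, had 52.3 CPM in Plaur KO and 115 CPM in WT, a log2 ratio of -1.13 (-1.32 to -0.95), and Saa3 -1.07 (-1.63 to -0.52), while Cxcl2 had 0.24 (0.22 to 0.26) and Il17ra 0.23 (0.14 to 0.32). Among the chitinase-like genes, Chil3 had -0.51 (-0.73 to -0.28) where Chil1 had 0.48. Of 19 mature neutrophil genes 14 were higher and 5 lower, with a median of 0.27 beside -0.07 over all 9182 genes. How many of all genes were higher or lower by any amount was not counted. Retnlg, a leading gene of cluster 0, was at 1.09 (1.07 to 1.11), and the part of the cluster mix in it was not tested. Scaling by TMM or by DESeq2 size factors in place of total UMIs raised each of these neutrophil log2 ratios by 0.11 or 0.12, which turns Cybb, the median of the primary granule list and the median of all genes above 0 and brings Saa3 short of 2-fold.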

How the data were processed

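The count tables hold UMI counts per gene or antibody tag and cell barcode, as the authors deposited them, not normalized. Cell Ranger 7.0.0 made them, per the file headers; the submitters' processing notes name Cell Ranger 7.1.0 and 7.0.0 with mm10. The genotype of a table follows from its library prefix, which the sample description repeats.

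A barcode was kept from 200 genes upwards and up to a 10% mitochondrial share, so 61 Plaur KO and 80 WT barcodes dropped out. Doublet calls of Scrublet in scanpy 1.11.5 (expected 8%) were removed, 457 (4.55%) in Plaur KO and 260 (2.91%) in WT. Both libraries were clustered together without integration (3000 variable genes without the 9 members, 30 components, 15 neighbours, Leiden resolution 1). Names came from 22 marker sets: markers had to reach 20% of the cluster's cells and 2-fold the level elsewhere, and 3 such markers made a name. The names are rebuilt here and may differ from the study's.

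Summed UMIs of each class in each library are given as CPM with exact Poisson intervals. Log2 ratios, Plaur KO over WT, have exact conditional binomial intervals, and shares exact Clopper-Pearson intervals. These intervals cover counting error alone, and where no UMI was seen the limit is 3 counts in that library or class. A difference is called from 2-fold among genes with at least 20 UMIs over both libraries. On counts simulated from the Poisson model that the intervals assume, 95.5% of them held the true ratio over 15928 genes in all kept cells. In neutrophil-like cells 95.8% did over 9182 genes. This checks the calculation only. It cannot show that the intervals hold for genes whose UMIs lie in a few barcodes, such as Camp. All 9 members are named, with up to 2 highest and 2 lowest genes of each list described, at 50 UMIs or more. The members, lists and rules were chosen with earlier results of these data known. Thinning to 1000 UMIs left out 177 Plaur KO and 107 WT neutrophil-like cells. Promoter windows came from RefSeq. Alternatives were other filters, clusterings, scalings (edgeR 4.0.16, DESeq2 1.42.0) and leaving out the richest cells; leaving out cluster 15, 18 or 29 was chosen after seeing the data. Scripts ran in R 4.3.3 and Python 3.11.15 with SciPy 1.17.1, NumPy 2.4.6 and pandas 2.3.3.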

Additional observations from a re-analysis of the deposited data

Results flagged for a closer look

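For 3 genes the Plaur KO over WT log2 ratio pointed opposite ways in different clusters, each with an interval on 1 side of 0; the differences between clusters were not tested. Ngp had 4.56 in cluster 18 and -2.50 in cluster 14, where 115 of the 128 WT UMIs were in a single barcode. Ltf had 2.38 in cluster 0, on 55 Plaur KO UMIs, 43 of them in a single barcode, and 3 WT UMIs, and -4.28 in cluster 29, where all 116 WT UMIs were in a single barcode. Lcn2 had 1.11 in cluster 29 and -0.44 in cluster 1. In the 518 Plaur KO and 340 WT barcodes left out of the comparisons as doublet calls or by the filters, Lcn2 had 766 Plaur KO and 268 WT UMIs, a log2 ratio of 0.73, and Prtn3 had 12 Plaur KO UMIs and 1 WT UMI.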

How the results depend on the processing

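No paired analysis was possible because there was 1 RNA library per genotype. Leaving out the 5 cells per library with most UMIs of a gene moved the log2 ratio (Plaur KO over WT) in all kept cells to 2.05 for Ngp and 1.89 for Camp and reversed Ltf to 0.26; in neutrophil-like cells it moved Ngp to 1.19 and reversed Camp to 2.52. Without cluster 18 the ratios in all kept cells were 0.74 for Ngp, -0.37 for Camp (reversed), 0.84 for Lcn2 and 2.42 for Prtn3, and without cluster 29 they were 0.52 for Ltf (reversed), 0.88 for Lcn2 and 1.06 for Chil1. Thinning each cell to 1000 UMIs gave 0.20 for Ltf (reversed), 0.59 for Lcn2 and 0.96 for Chil1 in all kept cells, and 0.47 for Ngp, 0.13 for Camp (reversed) and 0.13 for Lcn2 in neutrophil-like cells. Weighting the neutrophil-like clusters alike gave 0.090 for Ltf, where the main value of -0.38 has the other sign and an interval that includes 0, -0.11 for Lcn2 (reversed) and 0.71 for Chil1; without cluster 15, an alternative added after seeing the data, these were 0.090, -0.095 (reversed) and 0.40. TMM and DESeq2 factors, which shift all ratios by 0.09 and 0.11 in all kept cells, moved Lcn2 to 1.02 and 1.04 there, and to 0.30 and 0.31 in neutrophil-like cells. Past or short of 2-fold in all kept cells, the call thus changed for Ngp, Chil1, Lcn2 and Camp. The other 98 of 125 ratios under these settings stayed within the interval of the main value. The 13 Plaur KO cells with at least 2 of Ngp, Camp and Ltf became 8 when each gene needed 2 UMIs, 5 after thinning and 6 without cluster 18. The cause of these moves was not tested, beyond the fewer cells or UMIs each setting leaves. Genes called 2-fold higher and lower in all kept cells numbered 422 and 505, with 672 and 803 from 10 UMIs and 238 and 294 from 50 UMIs; in neutrophil-like cells they numbered 142 and 377, with 258 and 715 from 10 UMIs and 58 and 145 from 50 UMIs. At this depth Mpo, Elane and Ctsg are too rare for a ratio in neutrophil-like cells.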
